A study of Mus musculus with 2 samples.

Results

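The genes described here make fatty acids, triglycerides and cholesterol. They were chosen as 36 genes of these pathways, each read from a probe set that the array's annotation pairs with that gene alone, and 35 of the 36 were read in this way, among 19938 genes measured in all. Acat2, the cytosolic thiolase that opens the sterol pathway, was not analysed here. The members fall into a fatty acid and triglyceride branch of 19 measured genes and a sterol branch of 16.

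The RNA came from mouse fetal ear collected at E18.5, just before birth. One group was wild-type BALB/c and the other was BALB/c null for Myf5 and Myod (Myf5-/-:MyoD-/-), which encode the factors that set cells on the skeletal muscle path. There was 1 array per group, so the differences have no replicate check, animals cannot be tested against each other, and precision is limited by the number of arrays. The labels name no Cre or transgene, and leave unstated the part of the ear dissected and any pooling of embryos.

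Fatty acids are built in the cytosol from acetyl-CoA, which acetyl-CoA carboxylase turns into malonyl-CoA and fatty acid synthase joins into palmitate. Desaturases and elongases then modify the chain, and acyltransferases load it onto a glycerol backbone to make triglyceride. Cholesterol starts from the same acetyl-CoA but runs through mevalonate, squalene and lanosterol. In most tissues SREBP-1c and ChREBP drive the fatty acid genes and SREBP-2 the sterol genes, and the fatty acid branch is especially active in fat cells, liver and sebaceous glands.

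Signals were log2 values for 35557 probe sets per array. A floor was set at the median of each array, 5.65 in wild-type and 5.70 in double-knockout ear, and all 35 members lay above it on both arrays. Over the 12458 genes that passed the floor on 1 or both arrays the median difference was -0.01. Myod1 itself read 6.95 and 6.38 and Myf5 read 5.94 and 5.25, wild type first, but the labels do not say whether their probes lie in the deleted part. Contractile and other markers of skeletal muscle were at least 2-fold lower in 8 of 8 cases, beside 1.71% of all genes above the floor. The inner ear markers Oc90, of otoconia, and Tecta, of the tectorial membrane, read 11.28 and 8.74 in wild-type ear and 11.26 and 8.76 in double-knockout ear, whereas Otos, at 4.53 and 4.68, was below the floor on both arrays.

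The comparison set the fatty acid and triglyceride branch against the sterol branch, as a description of 2 arrays. On these arrays most genes of the first branch were higher in the double knockout, and those of the second were close to the wild type. The median log2 difference of the fatty acid and triglyceride genes, double knockout minus wild type, was 0.68, or 1.60-fold, and 18 of 19 were above 0, against 48% of all genes above the floor. The sterol genes had a median of 0.07, or 1.05-fold, with 11 of 16 above 0. At 2-fold or more, 3 members were higher, all of the fatty acid branch (Thrsp, Fasn and Agpat2), beside 0.482% of all genes. No member was 2-fold lower, beside 1.71% of all genes. At 1.5-fold or more, 11 of the 19 fatty acid genes and 0 of the 16 sterol genes were higher, beside 2.25% of all genes. No member was 1.5-fold lower, beside 3.62% of all genes.

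The branches were 0.61 apart in their medians, or 1.52-fold. Of the 19 fatty acid genes, 15 had a difference above that of every sterol gene, 3 lay within the sterol range and 1, Acss2, lay below it. Ranked among all 12458 genes, 13 of the 19 stood in the top 5% towards the double knockout, and 0 of the 16 sterol genes did, whose percentiles ran from 14.4 to 88.9. For scale, the standard deviation was 0.344 over the differences of 11626 genes that passed the floor on each array, and 0.168 between probe sets of 1 gene, from 619 genes with several. The second value compares probe sets of a gene on the same arrays and says nothing of the spread between animals. In whole-tissue RNA, more cells of a type and more RNA per cell cannot be told apart.

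**Figure D1:**
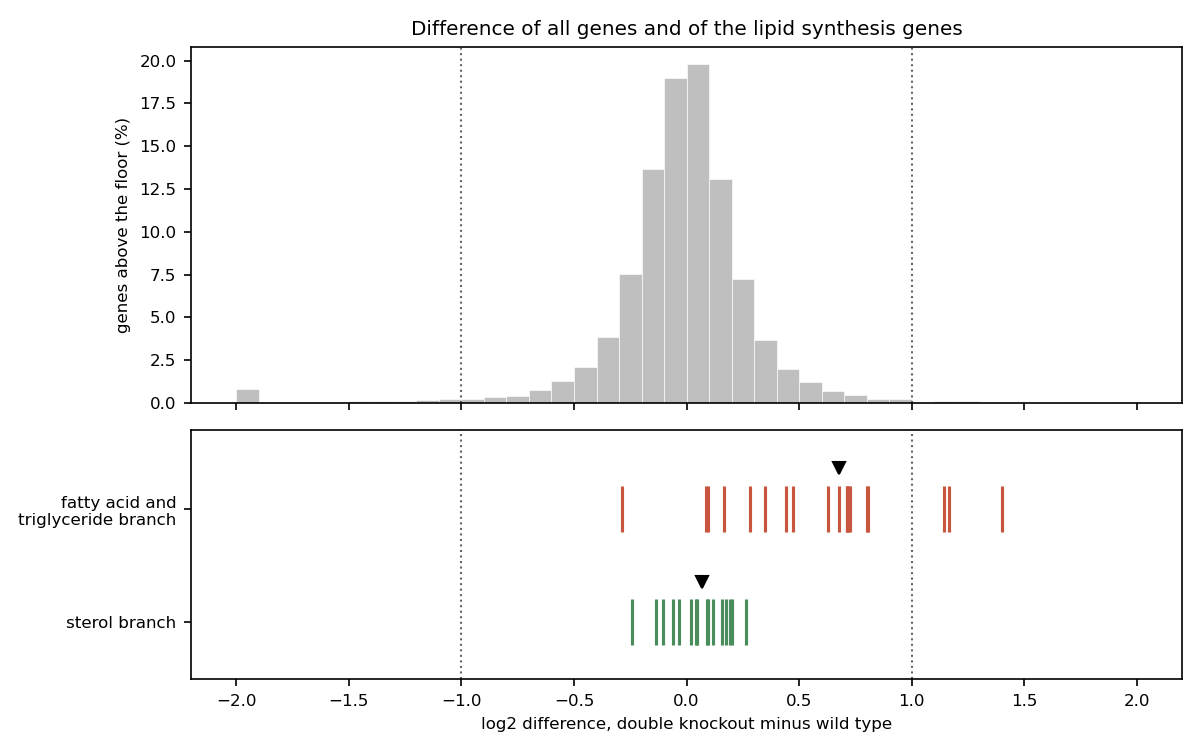
The upper panel shows the share of the 12458 genes above the floor (vertical axis, percent) by log2 difference, double knockout minus wild type (horizontal axis), with genes beyond 2 in either direction in the end bars. In the lower panel each stroke is 1 gene of the fatty acid and triglyceride branch (19 genes) or the sterol branch (16 genes), triangles mark the branch medians of 0.68 and 0.07, and dotted lines mark 2-fold.

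The first step supplies acetyl-CoA and reducing power in the cytosol. In what follows, paired signals give the wild type first, and higher or lower refers to the double knockout. Acly, ATP citrate lyase, which splits citrate to acetyl-CoA, read 8.67 in wild-type and 9.48 in double-knockout ear, 1.74-fold higher. Acss2, which makes acetyl-CoA from acetate, was the exception of the branch, at 7.68 and 7.39, 1.22-fold lower. Me1, the malic enzyme that yields NADPH, read 7.79 and 8.07, and its other probe set differed by 0.31, close to the 0.28 of the brighter one. The citrate route to acetyl-CoA and the acetate route therefore lay on opposite sides of 0.

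The committed steps had the highest median of any role, 0.80 over 3 genes. Acaca, the carboxylase isoform of lipogenic tissue, read 8.19 and 9.00, 1.75-fold higher, and its other probe set differed by 0.64. Acacb, the mitochondrial isoform whose malonyl-CoA restrains fatty acid oxidation, read 7.68 and 8.39, 1.64-fold higher. Fasn, fatty acid synthase, read 9.98 and 11.15, 2.24-fold higher, which put it at rank 45 of 12458. All 3 genes of this step were thus at least 1.5-fold higher.

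Desaturation and elongation genes split between close relatives. Scd1, the stearoyl-CoA desaturase of fat, liver and sebaceous gland, read 10.09 and 10.56, 1.39-fold higher, while Scd2, the isoform of brain and developing skin, read 11.42 and 11.51, 1.07-fold higher. Elovl6, the elongase that extends palmitate to stearate, read 9.05 and 9.78, 1.65-fold higher. Elovl5, which extends polyunsaturated chains, read 9.48 and 9.57, 1.06-fold higher. Scd1 and Elovl6 thus had larger differences than their relatives, 0.47 against 0.10 and 0.73 against 0.09. Whether the members of a pair differ from each other could not be tested with 1 array per group.

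Glycerolipid assembly had a median of 0.69, and all 6 of its genes were above 0. Gpd1, which makes the glycerol phosphate backbone, read 11.15 and 11.83, 1.60-fold higher. Gpam, the mitochondrial acyltransferase that adds the first chain, read 8.31 and 8.47, 1.12-fold higher and the smallest difference of the group. Agpat2, the acyltransferase that adds the second chain and whose loss causes lipodystrophy, read 9.37 and 10.51, 2.21-fold higher, at rank 48. Agpat2 stood apart among the acyltransferases of these steps: its relatives Agpat1 and Agpat3 differed by 0.22 and -0.06, and Gpat4, another enzyme of the first acylation, by 0.12, a choice of genes made after seeing the values. Lpin1, the phosphatidate phosphatase, read 7.29 and 8.01, 1.64-fold higher. The enzymes of the last step read 8.84 and 9.55 for Dgat2, 1.64-fold higher, and 8.02 and 8.46 for Dgat1, 1.36-fold higher. Both acyltransferases of the last step thus lay in the same direction.

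Among the regulators, Thrsp had the largest difference of all 35 members. This small nuclear and cytosolic protein, abundant in lipogenic tissue, promotes fatty acid synthesis; it read 8.96 and 10.36, 2.64-fold higher, at rank 23. Mlxipl, which encodes the carbohydrate-responsive factor ChREBP, read 6.52 and 7.15, 1.54-fold higher. Srebf1, which encodes SREBP-1, read 7.99 and 8.34, 1.27-fold higher. Srebf2, the SREBP of the sterol branch, read 8.78 and 8.68, 1.07-fold lower. The SREBP genes differed by 0.35 for Srebf1 and -0.10 for Srebf2. The second is smaller in size than the standard deviation of 0.168 between probe sets of a gene.

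**Figure D2:**
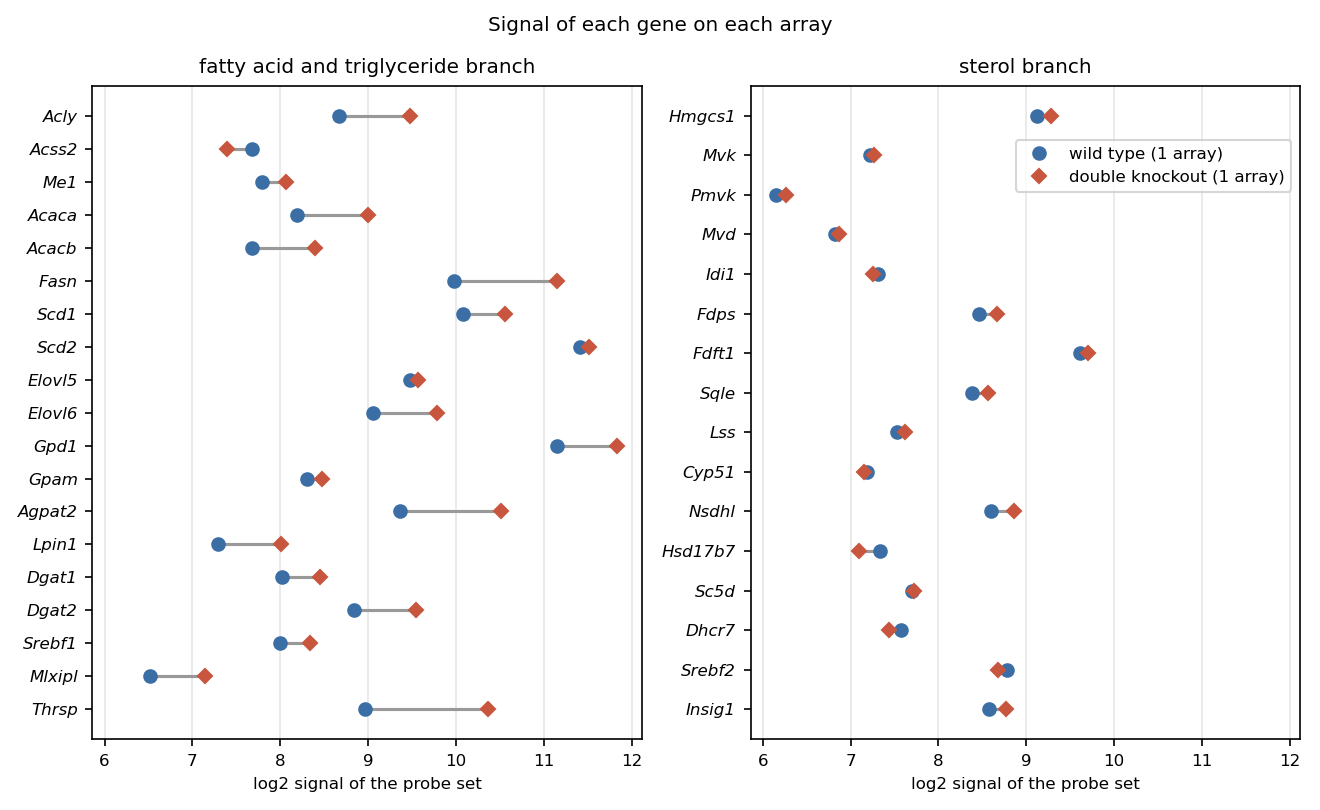
Log2 signal (horizontal axis) of the probe set of each gene on the wild-type array (circles) and the double-knockout array (diamonds), 1 array each, with the genes of each branch in pathway order. The pairs are far apart for Fasn (9.98 and 11.15), Agpat2 (9.37 and 10.51) and Thrsp (8.96 and 10.36), and nearly coincide for most sterol genes, such as Sc5d (7.70 and 7.72).

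In the sterol branch the mevalonate steps had a median difference of 0.08 over 4 genes. Hmgcs1, the cytosolic HMG-CoA synthase, read 9.12 in wild-type and 9.28 in double-knockout ear, 1.12-fold higher. The kinases Mvk and Pmvk read 7.23 and 7.27, and 6.15 and 6.26. Mvd, the decarboxylase that ends the mevalonate section, read 6.83 and 6.87. All 4 lay slightly above 0, by 0.16 at most. The 4 genes of the isoprenoid and squalene steps had a median of 0.13. Idi1, the isomerase of the isoprenoid unit, read 7.32 and 7.25, and its other probe set differed by -0.05, close to the -0.06 of the brighter one. Fdps, which makes farnesyl diphosphate, read 8.46 and 8.66, 1.15-fold higher. Fdft1, squalene synthase, read 9.61 and 9.70, with 0.19 on its other probe set against 0.09 on the brighter one. Sqle, the squalene epoxidase and a rate-limiting enzyme of the pathway, read 8.39 and 8.56, 1.13-fold higher. These 4 differences lay between -0.06 and 0.20, beside the standard deviation of 0.168 between probe sets of a gene.

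From lanosterol to cholesterol the genes went both ways, 3 above and 3 below 0, with a median of -0.01. Lss, lanosterol synthase, read 7.53 and 7.62, and Cyp51, the lanosterol demethylase, read 7.18 and 7.15. Nsdhl, a dehydrogenase that helps remove methyl groups from the sterol ring, had the highest difference of the sterol branch, at 8.60 and 8.87, 1.20-fold higher. Hsd17b7, the ketoreductase that acts in the same demethylation, had the lowest, at 7.34 and 7.10, 1.18-fold lower. Enzymes of consecutive reactions thus marked both ends of the branch's range. Sc5d, a sterol desaturase, read 7.70 and 7.72. Dhcr7, the reductase that forms cholesterol from dehydrocholesterol, read 7.57 and 7.44, 1.10-fold lower. Insig1, which holds the SREBP precursors in the endoplasmic reticulum and is itself an SREBP target, read 8.58 and 8.77, 1.14-fold higher. No gene of the branch reached 1.5-fold in either direction.

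Promoter sequences are shown for the fatty acid branch genes Fasn and Thrsp, which have the largest differences of the branch. They are also shown for Hmgcs1 and Insig1 of the sterol branch, which have small differences. Each runs from 250 bases before to 50 bases after the start of the gene, from RefSeq on GRCm38.p6, written 5′ to 3′ on the strand of the gene: chr11:120824498-120824797 on the minus strand for Fasn, chr7:97417501-97417800 on the minus strand for Thrsp, chr13:119690101-119690400 on the plus strand for Hmgcs1 and chr5:28071162-28071461 on the plus strand for Insig1. Capitals mark matches, on either strand, to the NF-Y box CCAAT, the Sp1 box GGGCGG, the E-box CACGTG and the core of the sterol regulatory element, TCACNCCAC.
Fasn: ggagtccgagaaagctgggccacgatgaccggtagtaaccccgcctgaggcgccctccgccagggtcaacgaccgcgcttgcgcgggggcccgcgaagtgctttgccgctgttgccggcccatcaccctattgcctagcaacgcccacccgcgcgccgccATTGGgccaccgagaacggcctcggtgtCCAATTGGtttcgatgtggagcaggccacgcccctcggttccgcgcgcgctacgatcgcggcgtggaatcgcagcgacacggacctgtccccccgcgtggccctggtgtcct
Thrsp: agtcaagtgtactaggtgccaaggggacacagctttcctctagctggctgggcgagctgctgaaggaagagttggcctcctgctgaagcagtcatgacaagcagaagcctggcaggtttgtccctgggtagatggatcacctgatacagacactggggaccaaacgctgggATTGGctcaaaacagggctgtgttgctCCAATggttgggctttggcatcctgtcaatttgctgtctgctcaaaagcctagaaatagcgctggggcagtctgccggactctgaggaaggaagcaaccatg
Hmgcs1: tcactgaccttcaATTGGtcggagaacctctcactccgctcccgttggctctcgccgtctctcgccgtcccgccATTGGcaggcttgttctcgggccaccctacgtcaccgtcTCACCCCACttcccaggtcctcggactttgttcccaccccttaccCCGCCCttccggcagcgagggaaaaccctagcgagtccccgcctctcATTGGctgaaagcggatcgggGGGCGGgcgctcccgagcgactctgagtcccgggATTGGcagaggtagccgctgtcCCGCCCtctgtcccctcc
Insig1: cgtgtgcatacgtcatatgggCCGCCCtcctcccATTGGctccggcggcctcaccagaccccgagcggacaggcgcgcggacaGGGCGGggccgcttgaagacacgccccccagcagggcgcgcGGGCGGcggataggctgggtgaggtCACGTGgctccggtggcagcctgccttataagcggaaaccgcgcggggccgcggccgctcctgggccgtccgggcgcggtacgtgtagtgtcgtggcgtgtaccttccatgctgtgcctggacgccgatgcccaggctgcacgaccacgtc

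The Fasn window held 3 NF-Y boxes, which begin 90, 62 and 59 bases before the start, and the last of these overlaps the one before it on the opposite strand. Thrsp had 2, at 79 and 52 bases before the start, and no match to the other motifs. Hmgcs1 held 4 NF-Y boxes, 3 Sp1 boxes and the sterol element core TCACCCCAC at 137 bases before the start. Insig1 held 1 NF-Y box, 3 Sp1 boxes and 1 E-box. Windows were in the table for 14 genes of each branch, and a gene with several starts was counted if any window matched. NF-Y boxes were in 10 of 14 fatty acid genes and 13 of 14 sterol genes, beside 41.1% of all 27025 genes in the table. Sp1 boxes were in 7 of 14 and 13 of 14, beside 38.2%, and E-boxes in 2 of 14 and 4 of 14, beside 8.09%. The sterol element core, in the spelling TCACNCCAC, was in Mlxipl and Hmgcs1 among the 28 members with a window, beside 1.44% of all genes. Other spellings of this element are not counted here. A match is a description of the letters, and sites outside these windows were not searched.

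The other genes of the pathways had medians below that of the fatty acid and triglyceride members. Of 18 further genes of fatty acid and glycerolipid metabolism above the floor, 15 were above 0, with a median of 0.22. At 2-fold or more, 1 was higher and 0 were lower, beside 0.482% and 1.71% of all genes. The gene past 2-fold was Pnpla3, a lipid droplet acyl hydrolase that SREBP-1c and ChREBP are known to induce, at 6.40 in wild-type and 7.44 in double-knockout ear, 2.06-fold higher. The members of highest signal, Tecr, Fads1 and Fads2, which complete chain elongation or desaturate polyunsaturated chains, differed by 0.08, -0.02 and 0.22. Elovl1, the elongase of very long saturated chains, was lowest, at 9.30 and 8.89, 1.33-fold lower. Slc25a1, the mitochondrial carrier that exports citrate to Acly and a gene named after its values were seen, read 8.67 and 9.23, 1.47-fold higher. Citrate export (Slc25a1), citrate cleavage (Acly), carboxylation (Acaca and Acacb) and chain synthesis (Fasn) thus lay in 1 direction.

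NADPH, which fatty acid and sterol synthesis both consume, comes from several cytosolic enzymes. All 5 measured genes of the list for this supply were above 0, with a median of 0.29. The list includes Tkt, Taldo1 and Pgls, of the pentose phosphate pathway, whose enzymes make no NADPH themselves. Tkt, transketolase, read 7.80 and 8.69, 1.86-fold higher. Of the genes whose enzymes yield NADPH, Idh1, the cytosolic isocitrate dehydrogenase, read 9.23 and 9.88, 1.57-fold higher. Pgd, of the oxidative pentose phosphate pathway, read 9.40 and 9.49, 1.07-fold higher. Beyond the sterol members, 8 further sterol genes were measured and 6 were not used here. These 8 had a median of -0.08, with 4 above and 4 below 0. None passed 1.5-fold, beside 2.25% of all genes higher and 3.62% lower by as much. Mbtps1, the protease that releases SREBPs, read 9.46 and 9.55, Scap, their escort, read 8.05 and 8.22, and Msmo1, a methylsterol oxidase, read 7.66 and 7.69. Stard4, a cholesterol carrier that SREBP-2 is known to induce, was lowest at 6.51 and 5.98, 1.45-fold lower.

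Most markers of fat cells were above 0, beside 48% of all genes above the floor. Their counts at 2-fold and 1.5-fold stand beside 0.482% and 2.25% of all genes. Of 12 white and general adipocyte markers, 2 were not used here and Lep was below the floor on both arrays; the other 9 were all above 0, with a median of 0.47, 1 at least 2-fold higher and 3 at least 1.5-fold higher. Their summed linear signal, over the 10 measured, was 4342 in wild-type and 6259 in double-knockout ear, a ratio of 1.44, against 1.53 for the 19 fatty acid and triglyceride genes. The markers of highest signal differed by 0.47 for Fabp4, 0.43 for Lpl and 0.27 for Cd36, and the largest difference was that of Retn, at 1.79. The other white and general markers above the floor were named after their values were seen. They were Plin1 at 0.96, Cidec at 0.91, Adipoq at 0.50, Pparg at 0.43 and Cebpa at 0.13. Brown adipocyte markers were above 0 in 7 of 8 cases, with a median of 0.28, 2 at least 2-fold higher and 3 at least 1.5-fold higher. Their summed signal, over the 9 measured, was 4286 and 6866, a ratio of 1.60. Such sums weigh the brightest genes of a list most. Of the brown markers, Ucp1 differed by 1.26, Cox8b by 0.30, Cox7a1 by 0.26 and Ppargc1a by -0.03. The other brown markers above the floor were named after their values were seen. They were Cidea at 1.19, Otop1 at 0.84, Dio2 at 0.08 and Prdm16 at 0.07. The part of fat cell number in the differences of the lipid synthesis genes was not tested.

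Other cell types with active lipid synthesis were read in the same way. Of 8 sebaceous gland markers 4 were below the floor on both arrays, among them the wax synthases Awat1 and Awat2, and the receptor Mc5r read 6.18 and 6.21. The summed signal of this list was 710 and 1234, but Cidea, which brown fat also expresses, went from 8.52 to 9.71, while Far2 and Krt79 differed by 0.35 and at least 0.29. Hepatocyte markers were below the floor on both arrays in 5 of 7 cases, Alb at 3.46 and 3.70 and Afp at 4.13 and 3.74 among them, and the sum of 2397 and 2217 was mostly Ttr, which the choroid plexus also makes. Myelinating glia, which depend on cholesterol synthesis, had 4 of 5 markers below 0, a median of -0.17 and a sum of 3535 and 3022. Macrophage markers were below 0 in 6 of 6 cases, with a median of -0.31 and a sum of 1482 and 1224. Epidermal markers were above 0 in 4 of 5 cases, with a median of 0.18 and sums of 1175 and 1473. At 2-fold or more 2 of 5 were higher, beside 0.482% of all genes. These were Krt1 and Krt10, below the floor in the wild type and at least 3.67-fold and 3.43-fold higher. Krt14 was 1.26-fold lower, Krt5 read 9.22 and 9.27, Krt15 differed by 0.18, and Lor and Ivl were below the floor on both arrays. Brain neuron markers were above 0 in 8 of 8 cases, with a median of 0.90 and sums of 3440 and 4813. In the wild type 6 of 8 were above the floor, and in the double knockout 8 of 8. A gene above the floor in the double knockout only could not lie below 0. This list and the next were chosen with earlier results of these data known, so their counts are descriptions only. Markers of salivary and lacrimal glands were above 0 in 8 of 8 cases, with 7 at least 2-fold higher, beside 0.482% of all genes. Their sum went from 207 to 10805, with 1 of 8 above the floor in the wild type and 8 of 8 in the double knockout. These sums also moved between the arrays, and their part in the lipid synthesis differences was not tested. The skeletal muscle markers summed to 22205 and 429.

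**Figure D3:**
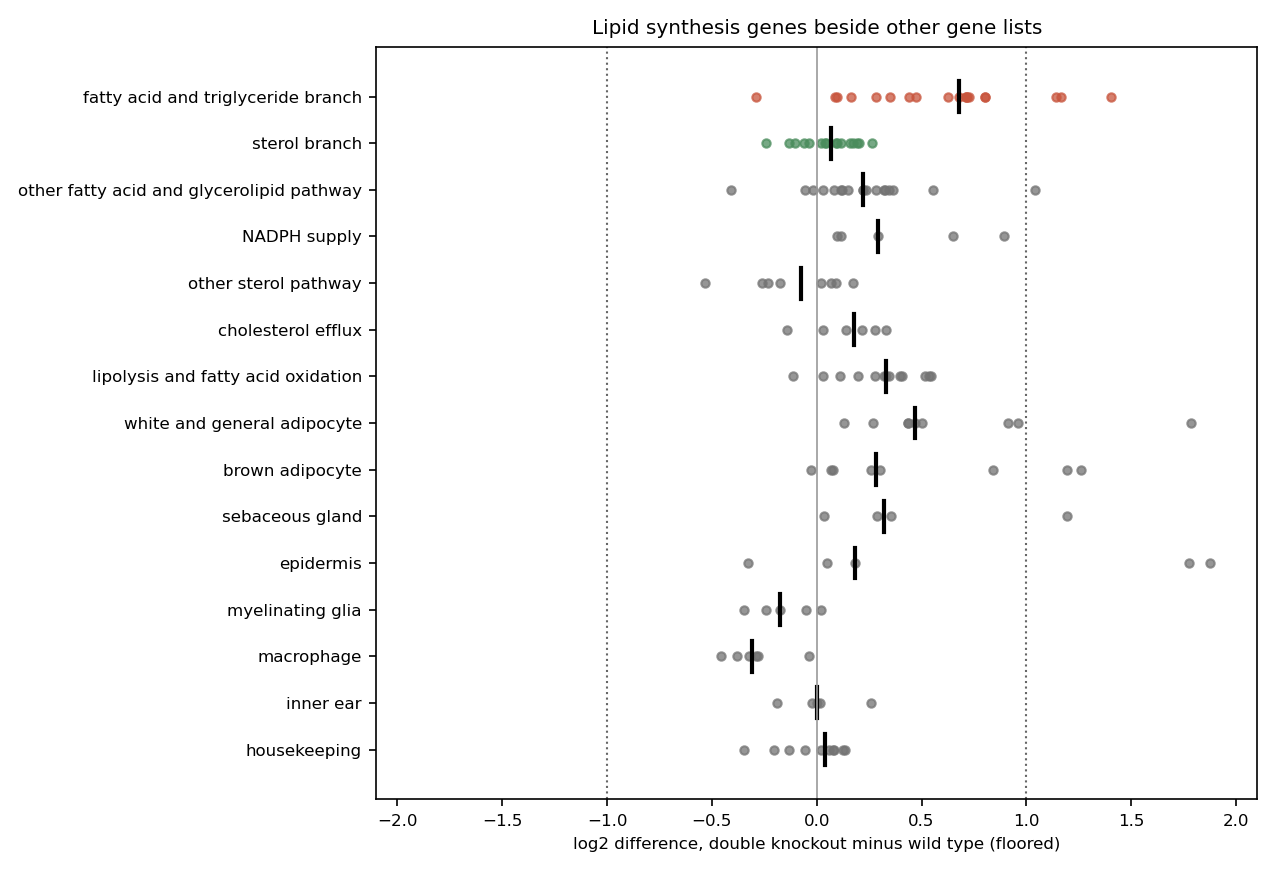
Log2 difference, double knockout minus wild type, with values below the floor raised to it (horizontal axis), for each gene above the floor in 15 lists; points are genes, black bars are list medians and dotted lines mark 2-fold. The lists of salivary and lacrimal gland, brain neuron, hepatocyte and skeletal muscle markers are not drawn, and the first pair of these have higher medians (3.48 and 0.90) than any list shown. The fatty acid and triglyceride branch has a median of 0.68 and the white and general adipocyte markers one of 0.47, while the sterol branch (0.07), inner ear markers (0.00) and housekeeping genes (0.04) lie near 0.

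The gap between the branches was similar under other ways of treating the values. Over 4 other scalings, 4 other treatments of the floor, 2 other choices of probe set and 3 other summaries of the branch, the fatty acid and triglyceride branch lay between 0.58 and 0.76, the sterol branch between 0.05 and 0.15, and the gap between 0.51 and 0.63. Some of these settings could not move the gap, which stayed at 0.61. Equal medians and housekeeping scaling shift both branches by the same amount. A floor at the 25th percentile or none leaves every member as it was.

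**Figure D4:**
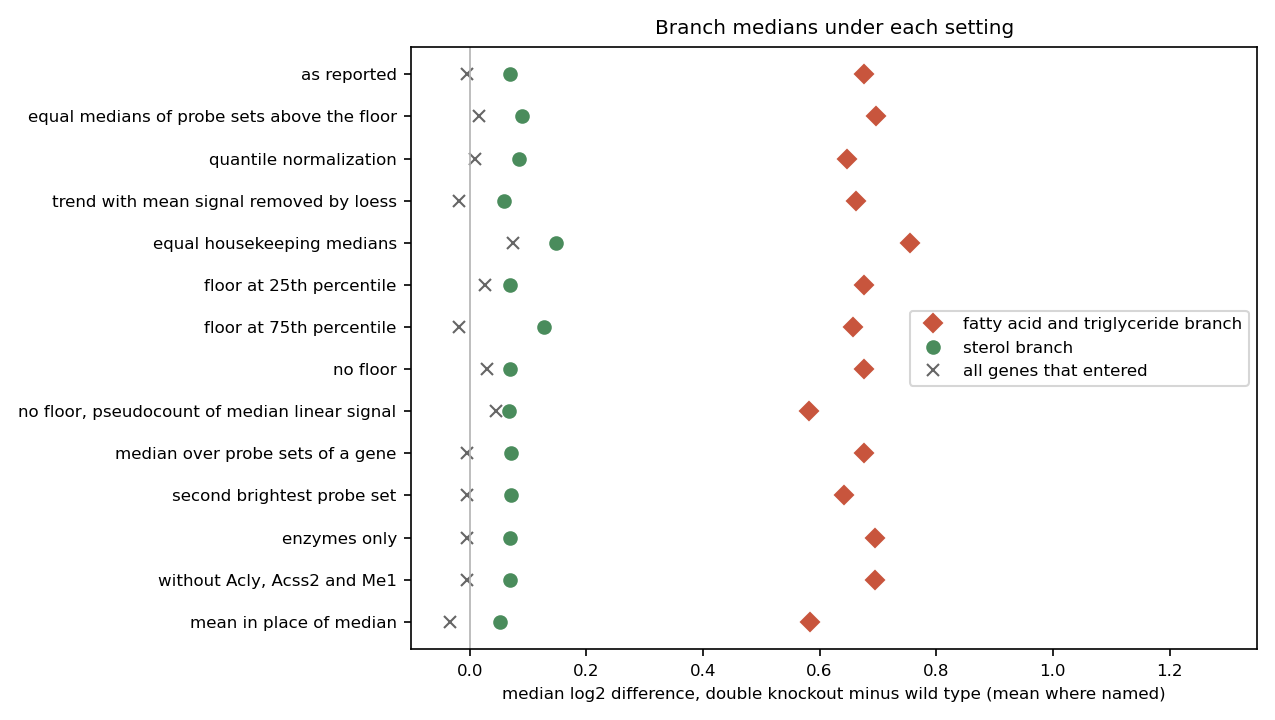
Median log2 difference, double knockout minus wild type (horizontal axis), of the fatty acid and triglyceride branch (diamonds), the sterol branch (circles) and all genes that entered (crosses) under the reported setting and 13 alternatives (rows). In every row drawn the diamonds lie between 0.58 and 0.76 and the circles between 0.05 and 0.15.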

How the data were processed

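Total RNA, extracted with Trizol per the labels' protocols, was labelled as biotinylated cRNA from 6 µg and hybridised to 1 Affymetrix array per group. The deposited values are log2 signals, 1 per probe set; the base was read from their range, 0.75 to 13.27. Per the submitters' processing notes the authors used MAS5, with no version given; these probe sets belong to a whole-transcript array, for which MAS5 is not the usual method, so how the log2 values were summarised, and what a fold on their scale means, is uncertain. The handling of background and of scaling between arrays, and the build, were not given in the sources used here; no rescaling was applied.

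The platform annotation, which can be old, paired 21789 probe sets with 1 gene, 1621 with several and 12147 with none. Entrez identifiers of 21698 matched a RefSeq table. Per gene the probe set of highest mean linear signal was kept, values below each array's 50th percentile were raised to it, and the log2 of the wild type was subtracted from that of the double knockout for genes that passed the floor on 1 or both arrays. Where 1 side was at the floor a fold is written "at least". Without replicates no test or p-value was computed; counts were taken at 2-fold and 1.5-fold, beside those over all genes. The calculation was tested on simulated data. Python 3.11.15, pandas 2.3.3, numpy 2.4.6 and statsmodels 0.14.6 were used.

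The members and lists were chosen with earlier results of these data known. All 36 members could be named, and from other pathway and adipocyte lists the 3 genes of highest signal and the largest difference in each direction; other marker lists are given by counts and single genes that were chosen after their values were seen. Further spellings of the promoter motifs were searched and are not reported. Alternatives were equal medians, quantile normalization, a loess trend, scaling to housekeeping genes, a floor at the 25th or 75th percentile or none, a pseudocount of the median signal, other probe sets, other thresholds and other members of a branch.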

Additional observations from a re-analysis of the deposited data

How the results depend on the processing

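Of 3 members at least 2-fold higher, the count became 11 with the threshold at 1.5-fold and 0 at 3-fold; it was 3 under the 10 other scalings, floors and probe set choices it was counted under, and the count of members at least 2-fold lower was 0 under these and at both thresholds. Counts were not taken for the other memberships of a branch; Thrsp, 1 of the 3, is not among the enzymes. The branch medians and the gap between them moved by less than the 0.168 standard deviation between probe sets of a gene under each setting that bears on them. Over 343 values of single members under the alternatives, 342 moved by less than this and 1 by more. The latter was Mlxipl, at 0.45 with a pseudocount of the median signal. Many of the 343 values could not move independently, so the count of 342 does not measure stability. The lower floor and no floor left every member as it was. Equal medians and housekeeping scaling shifted all members by the same amount. Other probe sets could change only Acaca, Me1, Idi1 and Fdft1. Of the fatty acid genes, 18 were above 0 under every setting that gave a value; Thrsp ran from 1.32 to 1.48, Fasn from 1.13 to 1.25 and Agpat2 from 1.09 to 1.22. With the floor at the 75th percentile 18 fatty acid and 10 sterol genes entered. No paired analysis was possible because each group has 1 array, and for the same reason no array could be left out. How far these differences exceed the spread between animals is not known from these arrays.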

Other observations

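Genes that break down fat had a lower median difference than the fatty acid and triglyceride genes. No member reached 1.5-fold, beside 2.25% of all genes higher and 3.62% lower by as much. Among so few genes, a count of 0 is near those shares. Of 13 measured genes of lipolysis and fatty acid oxidation, 12 were above 0, with a median of 0.33. Pnpla2, the lipase that starts triglyceride breakdown, read 9.46 in wild-type and 10.01 in double-knockout ear, 1.46-fold higher. Acadm, a dehydrogenase of medium-chain fatty acids, read 10.03 and 10.57, and Hadha, a subunit of the mitochondrial trifunctional protein, read 10.83 and 11.10. Cpt1a, which admits fatty acids to mitochondria, was the only one below 0, at 8.71 and 8.60. The median lay below that of the fatty acid and triglyceride branch, 0.68, and above that of the sterol branch, 0.07; no test of these gaps is possible with 1 array per group.

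Genes of cholesterol efflux had a median of 0.18 over 6 genes, with 5 above 0. None passed 1.5-fold, beside 2.25% of all genes higher and 3.62% lower by as much. Apoe, which carries cholesterol out of cells, read 10.58 and 10.43, Lpcat3 read 8.79 and 8.82, and Npc2 read 8.42 and 8.56. Abca1, the transporter that loads cholesterol onto apolipoprotein, had the largest difference, at 8.23 and 8.56, 1.26-fold higher.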
